A study of Mus musculus with 11 samples.

Results

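The nuclear receptors for thyroid hormone, their retinoid X receptor partners, a corepressor and the hormone-linked genes Klf9, Hr and Dio2 were followed in mouse oligodendrocyte cultures measured on Affymetrix Mouse Genome 430 2.0 arrays. The 9 genes were chosen by symbol: Thra, Thrb, Rxra, Rxrb, Rxrg, Ncor1, Klf9, Hr and Dio2. The annotation used here gave 21 probe sets to 8 of them, out of 18194 genes named by 34958 probe sets with 1 symbol and 45101 probe sets in all, and Ncor1 was not analysed here. Of these, 16 probe sets of 7 genes were bright enough to be tested, with 3 or more arrays at a signal of 200 or higher. Knockout oligodendrocytes (3 arrays) carried 2 floxed copies of MRF, the gene now called Myrf, with Cre recombinase expressed from 1 allele of Olig2 (MRF fl/fl; Olig2 wt/cre). Control oligodendrocytes (4 arrays) came from littermates with 1 floxed copy and the same Cre allele (MRF wt/fl; Olig2 wt/cre), so both groups also kept only 1 wild-type Olig2 allele. Both were grown for 4 days without platelet-derived growth factor (PDGF) and with 40 ng/ml of the active thyroid hormone triiodothyronine (T3). Oligodendrocyte progenitors (4 arrays), whose genotype the labels do not give, were kept for 6 days in 10 ng/ml PDGF-AA. All cells were immunopanned with an antibody to PDGF receptor alpha from brains at postnatal day 7, and the medium held 2% B-27, a supplement that is itself made with T3. T3 addition, PDGF withdrawal and time in culture changed together, so they cannot be told apart when oligodendrocytes are set against progenitors. Whether the replicates came from different cultures or animals is not stated, and the p-values therefore cover only the spread among these 11 arrays.

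Thyroid hormone receptors sit on DNA as heterodimers with retinoid X receptors. Without hormone they hold corepressor complexes built on NCoR and SMRT, and with T3 they exchange these for coactivators. In the oligodendrocyte lineage T3 is a classical timer of the exit from division and of differentiation, and Klf9 and Hr are among the genes most directly induced by it. Dio2 encodes the deiodinase that makes T3 from thyroxine, in brain mainly in astrocytes and tanycytes.

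All arrays had been scaled to the same trimmed mean of 500, and 15100 to 17130 probe sets reached a signal of 200. Myrf had a signal of 2848.6, 1904.4 and 2223.4 on the knockout arrays, against 7374, 6613.5, 7517.4 and 6215 on the control arrays, without overlap. The log2 difference was -1.58 (adjusted p = 0.127, and 0.000257 when only the 7 oligodendrocyte arrays were fitted). The position of the probe set with respect to the deleted exons is not known here. Progenitor array 2 stood apart, with a Myrf signal of 6848.4 against 752.1 to 1135 on the other 3, and progenitor arrays 1 and 4 had a Gapdh 5′ to 3′ ratio of 0.332 and 0.12, against 1.15 to 1.41 on the other 9 arrays. The 7 oligodendrocyte markers summed to between 54707 and 66548 on knockout arrays, 97779 and 121234 on control arrays, and 18422 and 73359 on progenitor arrays, where array 2 was highest. The 12 astrocyte markers summed to between 90405 and 97779 on knockout arrays, 58831 and 81601 on control arrays, and 5967 and 10958 on progenitor arrays. Among them Gfap, singled out with Tagln after its values were seen, averaged 16237, 15744 and 80.7 in the same order of groups. The smooth muscle, pericyte and fibroblast markers, brightest among them Tagln, Myl9 and Acta2 in knockout oligodendrocytes, summed to between 4760.5 and 7999.2, 956.6 and 2825.5, and 264.3 and 552.1 in that order. No microglial marker exceeded a signal of 152.2 on any array. In these bulk samples, fewer cells of a type and less RNA per cell cannot be told apart.

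Klf9, Hr, Dio2 and Rxrg were higher in both kinds of oligodendrocyte than in progenitors, and Thra was higher in control oligodendrocytes. In the main fit, limma with Benjamini-Hochberg adjustment over 10070 genes, 5 of the 7 tested genes passed an adjusted p of 0.05 as higher, and none as lower, when control oligodendrocytes were set against progenitors. Over all tested genes, 24.4% passed as higher and 29.6% as lower in that comparison, and 20.1% were higher without overlap, as the same 5 members were. In knockout oligodendrocytes against the same progenitor arrays, 4 of the 7 passed as higher and none as lower, where 23.8% of all genes passed as higher and 26.8% as lower. These 4 did not overlap the progenitors either, where 23.5% of all genes were higher without overlap. Rxrg and Dio2 entered the test through the oligodendrocyte arrays, since no progenitor array reached a signal of 200, so these counts describe the genes and support no test of the group. The median log2 difference of the 7 genes was 1.95 in knockout oligodendrocytes and 1.84 in control oligodendrocytes against progenitors, beside -0.05 and -0.09 over all tested genes. Both medians are the values of Dio2, and like the counts they describe the genes and support no test of the group.

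Between knockout and control oligodendrocytes, 0 of the 7 genes passed in either direction, where 7.53% of all tested genes passed in either direction and 3.64% as higher. At an unadjusted p under 0.05, Rxrg alone passed, a gene that entered the test through the knockout arrays. Thra was lower and Rxrg higher on every knockout array than on any control array, while Klf9, Hr and Dio2 overlapped. Over all tested genes, 17.4% were higher and 14.2% lower without overlap in this comparison. The main fit also holds the progenitor arrays. With only the 7 oligodendrocyte arrays, Thra passed as lower and 15.8% of all genes were called. The sample titles give replicate numbers but state no pairing. Same-numbered arrays of these 2 groups deviated together from their group means, so the numbers were taken to pair them. The same-numbered arrays were then fitted with that number as a block, which leaves out control array 4. Rxrg and Hr then also passed, both as higher, and 22.2% of all genes were called. For values between genotypes, the replicate block named hereafter is this fit without the progenitors. The 7 genes had a median log2 difference of 0.22, beside 0.03 over all tested genes.

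**Figure D1:**
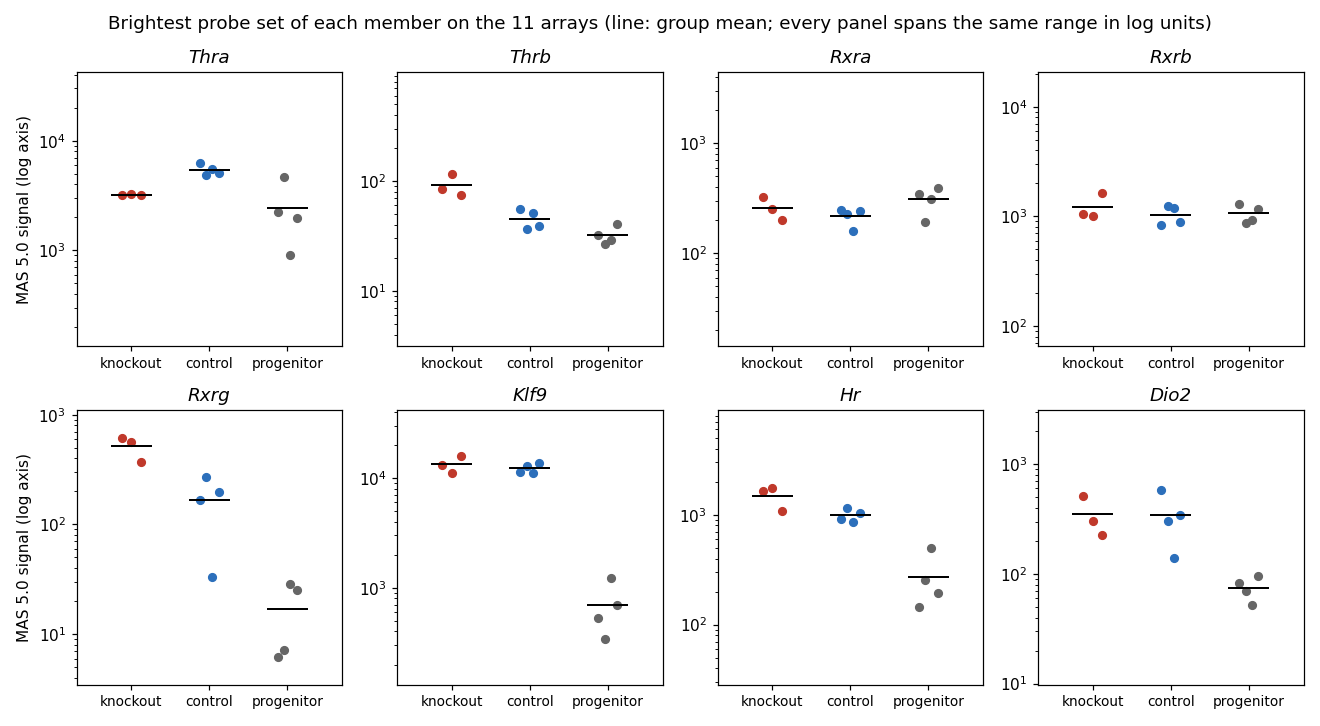
Signal of the brightest probe set of each gene on every array, on log axes that span the same range in each panel, for knockout oligodendrocytes (3 arrays), control oligodendrocytes (4) and progenitors (4). The line marks the group mean. Klf9 and Hr sit far above the progenitors on all 7 oligodendrocyte arrays, Rxrg descends from knockout to control to progenitor arrays, and Thra is lower on the 3 knockout arrays than on the 4 control arrays.

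Thra encodes the main thyroid hormone receptor of the brain, and its transcripts make both the hormone-binding receptor and a splice form that does not bind T3. Its brightest probe set, 1454675_at, had a signal of 3221, 3275.1 and 3177 on the knockout arrays. It had 6271.7, 4890.5, 5559.7 and 5074 on the control arrays and 2245.2, 4640.6, 904 and 1966.1 on the progenitor arrays. Every control array was above every knockout and every progenitor array, and the knockout arrays fell inside the range of the progenitors. The control oligodendrocytes averaged 5449 ± 617 and the progenitors 2439 ± 1577 (SD, n = 4 each), a log2 difference of 1.38 ± 0.36 (SE) and a fold of 2.60 with an adjusted p of 0.00714. The knockout oligodendrocytes averaged 3224 ± 49.1 (SD, n = 3), and their log2 difference from control oligodendrocytes was -0.75 ± 0.39, with an adjusted p of 0.296 in the fit of all 11 arrays. That fit takes 1 spread from all groups, and the progenitor arrays varied most for Thra. With only the 7 oligodendrocyte arrays the adjusted p was 0.00312, and with the replicate block the log2 difference was -0.78 and the adjusted p 0.00867. Against progenitors the knockout oligodendrocytes differed by 0.63 ± 0.39 with an adjusted p of 0.193. Without progenitor array 2, the one with the high Myrf signal, this difference was 1.01 with an adjusted p of 0.0067.

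The other probe sets annotated to Thra did not show this pattern. Probe set 1426997_at had 395.8, 480.8 and 270.2 on knockout arrays, 363.8, 316.4, 375 and 437.1 on control arrays, and 353.5, 601.8, 271.1 and 316 on progenitor arrays, with all groups overlapping. Probe set 1443952_at had 408.5, 329.7 and 342.5 on knockout arrays, 421.4, 333.1, 297.3 and 488.9 on control arrays, and 244.4, 483, 152.9 and 249.1 on progenitor arrays, again overlapping. Their log2 differences between knockout and control oligodendrocytes were 0.01 and -0.07, with adjusted p-values of 0.995 and 0.944 over 18628 probe sets. With the 3 probe sets averaged, the log2 difference between control oligodendrocytes and progenitors was 0.63 with an adjusted p of 0.0718, so the call for Thra rests on its brightest probe set. Which transcript forms each probe set reads was not examined here, and Nr1d1, which lies opposite Thra on the other strand, was too dim to test, averaging 227.6 on knockout, 95.3 on control and 54.5 on progenitor arrays.

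Thrb, the receptor gene used more by mature brain, was dim throughout. Its only probe set, 1422202_at, had 84.1, 115.3 and 75 on the knockout arrays, against 56.1, 36.5, 50.8 and 38.7 on the control arrays and 32.2, 26.8, 28.8 and 40.5 on the progenitor arrays. The knockout arrays were above all others and the control arrays overlapped the progenitors, but the signals stayed far under the minimum of 200 and Thrb was not tested. Means were 91.5 ± 21.1 (SD, n = 3) in knockout oligodendrocytes, 45.5 ± 9.45 in control oligodendrocytes and 32.1 ± 6.04 in progenitors (SD, n = 4 each).

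Of the retinoid X receptors, Rxrg, whose protein is found in oligodendrocyte lineage cells of the brain, passed as higher in both comparisons with progenitors. Probe set 1418782_at had 617.2, 560.7 and 373.9 on the knockout arrays. It had 167.7, 272.5, 33 and 198.2 on the control arrays and 6.2, 7.2, 28.7 and 25.3 on the progenitor arrays. The 3 groups did not overlap at any step, although control array 3, at 33, was close to the progenitors. Against progenitors, Rxrg was at least 4.5-fold higher in knockout oligodendrocytes (log2 difference 4.06 ± 0.54, adjusted p = 0.000104) and at least 1.32-fold higher in control oligodendrocytes (2.30 ± 0.50, adjusted p = 0.00247). These bounds set the progenitors at a signal of 100, under which all 4 arrays lay. Knockout oligodendrocytes averaged 517.3 ± 127 (SD, n = 3) and control oligodendrocytes 167.8 ± 100 (SD, n = 4), a log2 difference of 1.77 ± 0.54 and a fold of 3.40. This difference had an adjusted p of 0.0701 in the main fit, of 0.0539 with only the 7 oligodendrocyte arrays, and of 0.0151 with the replicate block, where the log2 difference was 1.93. It also passed with a pseudocount of 64 (adjusted p = 0.027) and without progenitor array 2 (adjusted p = 0.0409), and over all alternatives the adjusted p ran between 0.0151 and 0.23. The summed astrocyte and smooth muscle markers ran in the same steps as Rxrg across the groups. Control array 3 was the lowest of the control arrays in all of them, at 33 for Rxrg, 58831 for the astrocyte markers and 956.6 for the smooth muscle markers. Among the knockout arrays the order was reversed. Knockout array 3 was lowest for Rxrg, at 373.9, and highest for both marker sums, at 97779 and 7999.2. The part of these markers in the Rxrg difference was not tested.

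Rxra and Rxrb, the more widely expressed partners, passed in none of the 3 comparisons of the main fit. For Rxra, probe set 1454773_at had 324.8, 255.3 and 198.6 on knockout arrays, 244.9, 228.3, 160.6 and 244.6 on control arrays, and 347.4, 190.9, 312.7 and 396.5 on progenitor arrays. For Rxrb, probe set 1416990_at had 1046.7, 999.1 and 1619.8 on knockout arrays, 841.6, 1241.1, 1193.2 and 885.2 on control arrays, and 1296.8, 877.4, 929.6 and 1176.5 on progenitor arrays. All groups overlapped for both genes. Between knockout and control oligodendrocytes the log2 difference was 0.22 ± 0.27 for Rxra (adjusted p = 0.707) and 0.22 ± 0.23 for Rxrb (adjusted p = 0.65). Between control oligodendrocytes and progenitors it was -0.45 ± 0.25 for Rxra (adjusted p = 0.151) and -0.04 ± 0.21 for Rxrb (adjusted p = 0.88). Without progenitor array 2 the Rxra difference was -0.66 with an adjusted p of 0.0228. A second Rxra probe set, 1425762_a_at, averaged 157.7 in knockout oligodendrocytes, 166.2 in control oligodendrocytes and 135.2 in progenitors, and 1430497_at stayed at or under 12.9 on every array.

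Klf9, a zinc-finger transcription factor induced by T3, was far higher in both kinds of oligodendrocyte than in progenitors and overlapped between knockout and control oligodendrocytes. Probe set 1456341_a_at had 13101, 11018 and 15849 on the knockout arrays. It had 11315, 12848, 11086 and 13718 on the control arrays and 533, 344.8, 1223.7 and 693 on the progenitor arrays. The knockout and control arrays overlapped and each lay far above every progenitor array. Klf9 was 20.4-fold higher in knockout oligodendrocytes than in progenitors (log2 difference 4.35 ± 0.32, adjusted p = 1.56e-06) and 18.9-fold higher in control oligodendrocytes than in progenitors (4.24 ± 0.30, adjusted p = 9.29e-07). The log2 difference between knockout and control oligodendrocytes was 0.11 ± 0.32 (adjusted p = 0.891), and 0.17 with the replicate block (adjusted p = 0.434).

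Klf9 has 7 probe sets on the array, and 6 were bright enough to test. All 6 were higher without overlap in both kinds of oligodendrocyte than in progenitors. In 3 of them (1436763_a_at, 1436952_at and 1422264_s_at) no progenitor array reached a signal of 200, so these entered the test through the oligodendrocyte arrays and add no support. The other 3 were 1456341_a_at, 1428288_at and 1428289_at. The 6 had fitted folds of 9.92 to 42.4 for knockout oligodendrocytes and 8.64 to 26.0 for control oligodendrocytes. Of all 18628 tested probe sets, 25.6% were higher without overlap in knockout oligodendrocytes and 22.2% in control oligodendrocytes than in progenitors. Those folds are on the scale of signal plus 16, and for 1436763_a_at and 1436952_at, where every progenitor array was under 100, the bounds were at least 16.9-fold and 11.1-fold in knockout oligodendrocytes and at least 10.4-fold and 7.82-fold in control oligodendrocytes. Between knockout and control oligodendrocytes 1436763_a_at had 2100.9, 1906.7 and 1837.3 against 1398.5, 1154.6, 887.1 and 1379.1, without overlap. Its log2 difference was 0.71 with an adjusted p of 0.211, and for 1436952_at, also without overlap, it was 0.50 with an adjusted p of 0.414. Probe set 1422264_s_at read 2.2 and 0.6 on progenitor arrays 1 and 4, those with the low Gapdh ratio, against 50 and 168.6 on progenitor arrays 2 and 3. The seventh probe set, 1452723_at, stayed at or under 40.4 on every array and was not tested.

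**Figure D2:**
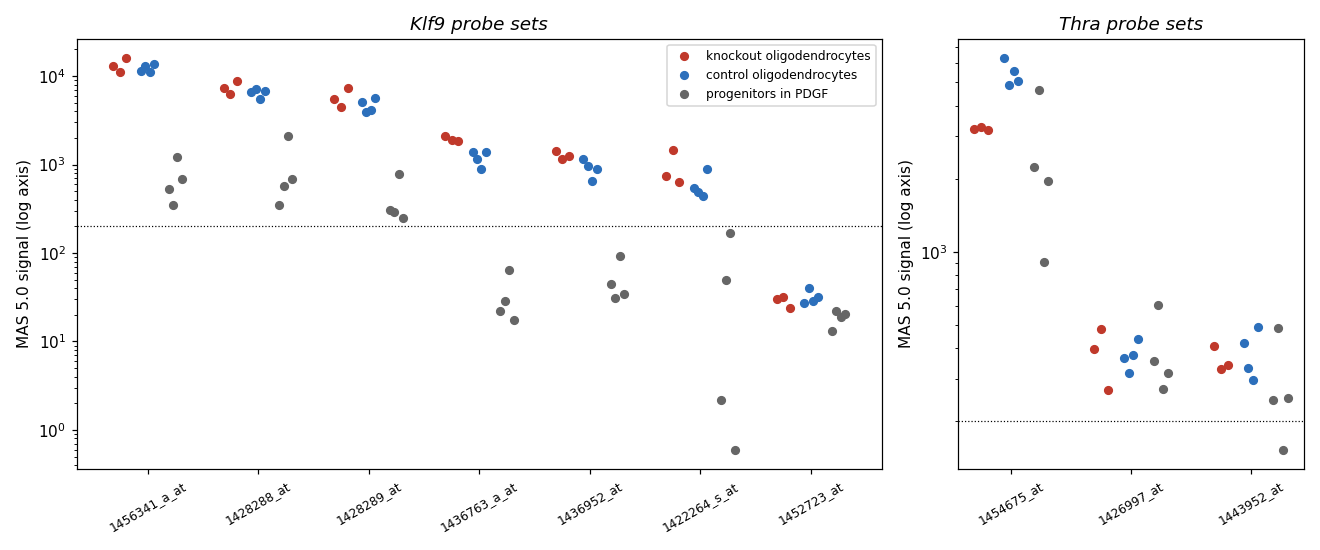
Signal on every array, on a log axis, of each probe set of Klf9 (left) and Thra (right) in knockout oligodendrocytes, control oligodendrocytes and progenitors, with the dotted line at a signal of 200. The 6 tested Klf9 probe sets separate oligodendrocyte from progenitor arrays, while of the 3 Thra probe sets only 1454675_at separates control from knockout arrays.

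Hr, which encodes a nuclear corepressor that binds thyroid hormone receptors and is itself induced by T3, moved in the same direction. Probe set 1435950_at had 1641.2, 1768.9 and 1076.8 on the knockout arrays, 908.9, 1162.9, 864.5 and 1048.6 on the control arrays, and 144.8, 252.8, 499.2 and 193.3 on the progenitor arrays. All 7 oligodendrocyte arrays were above all progenitor arrays, and knockout array 3 fell inside the control range. Hr was 5.66-fold higher in knockout oligodendrocytes than in progenitors (log2 difference 2.5 ± 0.34, adjusted p = 0.000116). It was 3.85-fold higher in control oligodendrocytes than in progenitors (1.94 ± 0.31, adjusted p = 0.000367). Knockout oligodendrocytes averaged 1496 ± 368 (SD, n = 3) and control oligodendrocytes 996.2 ± 136 (SD, n = 4), which is 0.56 ± 0.34 on the log2 scale (adjusted p = 0.374). With only the 7 oligodendrocyte arrays the adjusted p was 0.0849, and with the replicate block the difference was 0.58 and the adjusted p 0.0414. The dimmer probe set 1422110_at gave 2.63 for knockout and 2.35 for control oligodendrocytes against progenitors, with adjusted p-values of 0.000337 and 0.0004. It had no progenitor array at the filter's minimum signal and entered the test through the oligodendrocyte arrays, so these calls add no support. Between knockout and control oligodendrocytes this probe set gave 0.28 (adjusted p = 0.789).

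Dio2 was higher in both kinds of oligodendrocyte culture than in progenitors and overlapped between genotypes. Probe set 1418937_at had 515.7, 306.2 and 226.5 on the knockout arrays, 584.2, 300.6, 138.3 and 343.9 on the control arrays, and 83, 70.2, 52.2 and 94.9 on the progenitor arrays. Dio2 was at least 2.99-fold higher in knockout oligodendrocytes (log2 difference 1.95 ± 0.41, adjusted p = 0.0023) and at least 2.76-fold higher in control oligodendrocytes (1.84 ± 0.38, adjusted p = 0.00195) than in progenitors. The genotypes differed by 0.11 ± 0.41 (adjusted p = 0.916). The other Dio2 probe sets, 1426081_a_at and 1418938_at, were under the filter, averaging 136.7 and 80.6 in knockout oligodendrocytes, 148.5 and 96.5 in control oligodendrocytes, and 37.9 and 43.2 in progenitors. Of the 11 tested astrocyte markers, 10 passed as higher in both kinds of oligodendrocyte than in progenitors, moving with Klf9, Hr, Dio2 and Rxrg. Of all tested genes, 23.8% passed as higher in knockout and 24.4% in control oligodendrocytes. Gfap, Aqp4, Gja1, Aldh1l1 and Slc4a4 had no progenitor array at the filter's minimum signal and entered the test through the oligodendrocyte arrays. Aldoc, Slc1a2, Slc1a3, S100b and Fgfr3 did reach it in progenitors. The count therefore describes the markers and supports no test of them. The part of the astrocyte markers in the differences of Klf9, Hr, Dio2 and Rxrg was not tested.

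**Figure D3:**
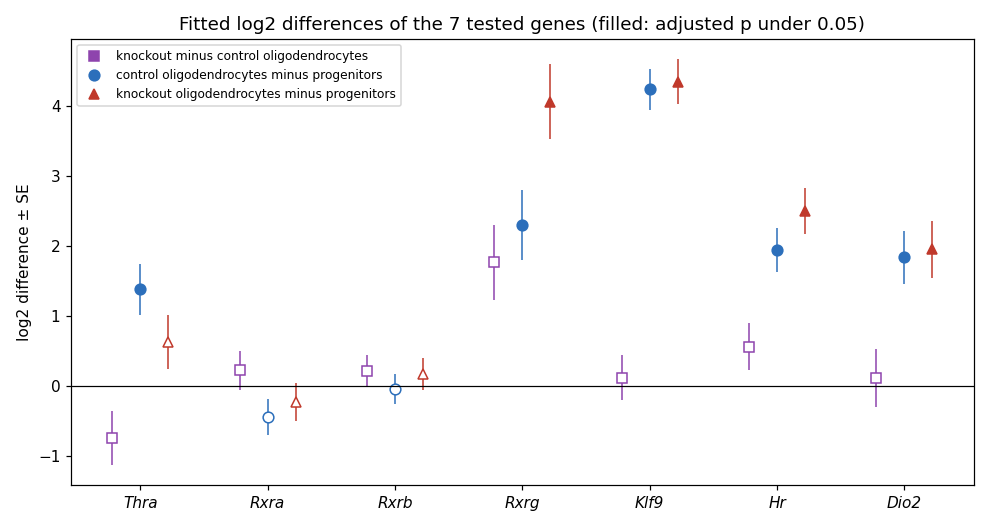
Log2 difference with its standard error for the 7 tested genes in knockout minus control oligodendrocytes (squares), control oligodendrocytes minus progenitors (circles) and knockout oligodendrocytes minus progenitors (triangles), filled where the adjusted p is under 0.05. The differences from progenitors reach 4.35 for Klf9 and 4.06 for Rxrg, while between genotypes the largest are 1.77 for Rxrg and -0.75 for Thra.

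The called genes differed in the order of their signals across the groups. Klf9 and Dio2 were at overlapping levels in knockout and control oligodendrocytes and lower in progenitors, and Hr shared this order in the main fit. Rxrg ran in steps, highest in knockout oligodendrocytes, then control oligodendrocytes, then progenitors. Thra peaked in control oligodendrocytes, with knockout oligodendrocytes and progenitors overlapping. Rxra and Rxrb overlapped in every comparison, and the dim Thrb was highest on the knockout arrays with the other groups overlapping. Progenitor array 2, whose Myrf signal lay among the control oligodendrocytes, had the highest Thra signal of the 4 progenitor arrays, 4640.6, while its Klf9 signal, 344.8, stayed far below every oligodendrocyte array.

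The start regions of the genes were read for motifs because several of them moved together against progenitors. RefSeq promoter windows of build GRCm38.p6, 250 bases before to 50 after the start, were matched for 7 of the 9 genes and gave 12 windows. The receptor half-site AGGTCA, on either strand, was found in 3 of them, against 16.3% of 32851 promoters of the same length. Its direct repeat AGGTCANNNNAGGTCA was found in 0 of the 12 and in 0.0152% of all. The GC box GGGCGG was in 5 of the 12 and in 35.7% of all, and the cAMP response element TGACGTCA was in 1 of the 12 and in 1.79% of all. The windows of the 3 genes with the clearest differences from progenitors among those matched are shown, with matches in capitals: Klf9 at chr19:23140976-23141275 (plus strand), which held none of the 4 motifs, the second start of Rxrg at chr1:167618015-167618314 (plus strand), with AGGTCA, and Dio2 at chr12:90738989-90739288 (minus strand), with TGACGTCA. These are letter matches only and say nothing of binding. The first start of Rxrg, at chr1:167598112-167598411 (plus strand) and not shown, held none of the 4 motifs.
Klf9: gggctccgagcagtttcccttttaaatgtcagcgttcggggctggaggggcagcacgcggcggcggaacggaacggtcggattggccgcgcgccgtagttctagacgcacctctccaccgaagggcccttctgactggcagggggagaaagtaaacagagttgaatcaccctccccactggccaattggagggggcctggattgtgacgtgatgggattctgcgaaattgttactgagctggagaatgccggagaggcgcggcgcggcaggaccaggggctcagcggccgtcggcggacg
Rxrg: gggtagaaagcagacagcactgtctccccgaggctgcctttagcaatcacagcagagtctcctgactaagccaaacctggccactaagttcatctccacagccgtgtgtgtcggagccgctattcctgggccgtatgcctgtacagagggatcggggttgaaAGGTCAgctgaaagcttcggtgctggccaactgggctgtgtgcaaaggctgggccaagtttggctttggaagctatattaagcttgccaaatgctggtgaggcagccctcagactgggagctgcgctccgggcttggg
Dio2: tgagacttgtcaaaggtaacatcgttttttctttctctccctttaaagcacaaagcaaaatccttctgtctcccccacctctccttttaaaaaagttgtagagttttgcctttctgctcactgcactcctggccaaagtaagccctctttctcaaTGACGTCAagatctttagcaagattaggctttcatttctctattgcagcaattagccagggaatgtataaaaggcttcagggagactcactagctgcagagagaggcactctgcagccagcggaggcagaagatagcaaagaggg

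Beyond the 9 genes, brain genes known to respond to T3 included several that were higher in both kinds of oligodendrocyte than in progenitors, and none passed between genotypes in the main fit. Of the 16 on the list, 9 were bright enough to test. In knockout oligodendrocytes against progenitors 6 passed as higher and 2 as lower, and in control oligodendrocytes against progenitors 7 passed as higher and 1 as lower, beside 23.8% higher and 26.8% lower, and 24.4% higher and 29.6% lower, of all tested genes. Of those called as higher, Aldh1a1, Itga7, Thrsp and Gbp3 had no progenitor array at a signal of 200 and entered the test through the oligodendrocyte arrays, so the counts, and the median log2 differences of 2.77 and 2.25, describe the list and support no test of it. Aldh1a3, called as lower in knockout oligodendrocytes, had no knockout array at that signal and entered through the progenitor arrays. The 2 passing as lower were 1 with only the 2 compared groups and 0 with the replicate number added as a block to that fit. They also became 1 without any 1 of the knockout arrays, control array 4 or progenitor array 1, 3 or 4, and the 1 became 2 without progenitor array 2. Aldh1a1, an enzyme that makes retinoic acid, had 2444.7, 5198.6 and 3468.2 on knockout arrays, 1701.4, 2251.6, 1308.4 and 1343.3 on control arrays, and 5.3, 3.3, 42.7 and 8.9 on progenitor arrays. It was at least 30.6-fold higher in knockout and at least 14-fold higher in control oligodendrocytes than in progenitors. Kcnj10, a potassium channel of glia, averaged 7742 ± 2660 in knockout oligodendrocytes, 10744 ± 3143 in control oligodendrocytes and 1067 ± 583 in progenitors (SD, n = 3, 4 and 4). Its log2 differences from progenitors were 2.92 and 3.40 for knockout and control oligodendrocytes, with adjusted p-values of 6.78e-05 and 1.27e-05. Thrsp, named for its response to thyroid hormone in liver, was 2.91 and 3.48 higher on the log2 scale in knockout and control oligodendrocytes. Homer1, a synaptic scaffold gene, fell by 0.95 in knockout and by 0.68 in control oligodendrocytes. Several of these genes, Kcnj10 and Aldh1a1 among them, are also expressed by astrocytes.

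Between knockout and control oligodendrocytes 0 of the 9 T3-responsive genes passed in the main limma fit, where 2 had an unadjusted p under 0.05. With only the 7 oligodendrocyte arrays Aldh1a1 passed as higher (adjusted p = 0.0229). With the replicate block Aldh1a1 (log2 difference 1.04, adjusted p = 0.0137) and Gbp3 (0.85, adjusted p = 0.0272) passed as higher and Aldh1a3 (-1.73, adjusted p = 0.014) as lower. These 3 were chosen after their values were seen. Without progenitor array 2 the main fit called 1 as lower, and without progenitor array 3 it called 1 as higher. The median log2 difference of the 9 was -0.26.

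**Figure D4:**
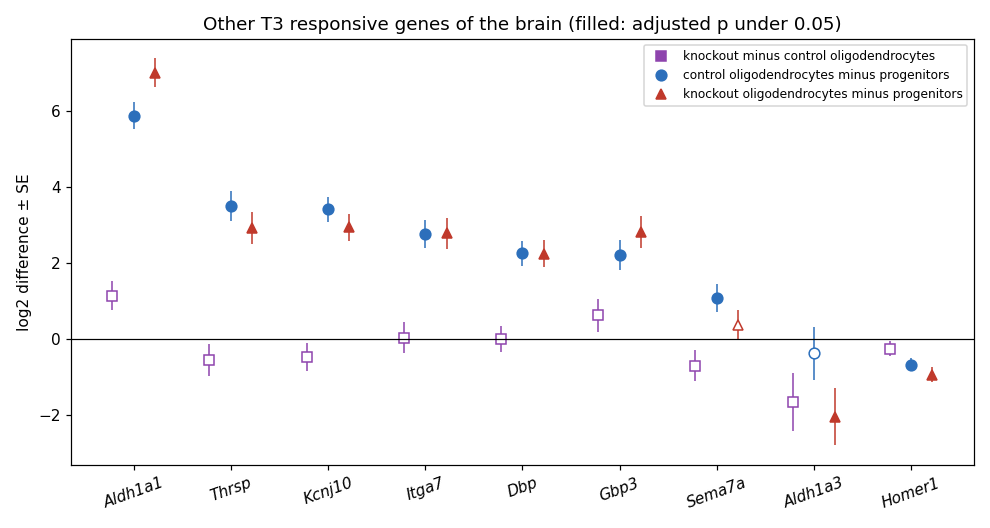
Log2 difference with its standard error for the 9 tested T3-responsive genes in knockout minus control oligodendrocytes (squares), control oligodendrocytes minus progenitors (circles) and knockout oligodendrocytes minus progenitors (triangles), filled where the adjusted p is under 0.05. Aldh1a1 lies 6.99 and 5.87 above the progenitors in knockout and control oligodendrocytes, Homer1 lies below them, and no square is filled.

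Among genes of the cofactor machinery more passed as lower than as higher against progenitors, in both kinds of oligodendrocyte. Of 7 tested corepressor genes, 3 passed as lower in knockout and 5 as lower in control oligodendrocytes, and 0 as higher in either, where 26.8% and 29.6% of all tested genes passed as lower. With probe sets averaged these counts were 1 and 3, and for knockout oligodendrocytes the count was also 1 with the replicate number as a block in a fit of the 2 groups. The histone deacetylase Hdac2 had a mean signal of 4098 ± 616 in knockout oligodendrocytes, 3973 ± 234 in control oligodendrocytes and 7811 ± 721 in progenitors (SD, n = 3, 4 and 4), with log2 differences from progenitors of -0.93 (adjusted p = 0.000303) and -0.97 (adjusted p = 0.000138). Of 12 tested coactivator genes, 7 passed as lower and 1 as higher in knockout oligodendrocytes, and 9 as lower and 1 as higher in control oligodendrocytes. The count of 7 was 3 without knockout array 2 or knockout array 3, 4 without progenitor arrays 1 and 4, 4 with probe sets averaged, and 1 with the replicate number as a block in a fit of the 2 groups. Carm1, an arginine methyltransferase, fell by 1.17 on the log2 scale in control oligodendrocytes (adjusted p = 0.000432). Ep300, an acetyltransferase, fell by 0.89 (adjusted p = 0.00569). Kat2b, another acetyltransferase, was higher by 0.96 in control oligodendrocytes (adjusted p = 0.00139). Its difference of 0.56 in knockout oligodendrocytes (adjusted p = 0.0372) no longer passed without knockout array 2 or 3, control array 1, 2 or 4, or progenitor array 2 or 3, where the adjusted p was up to 0.142, nor with only the 2 compared groups (adjusted p = 0.0952). Markers of dividing cells also passed as lower in both comparisons, 5 of 5, and their part in these differences was not tested.

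Between knockout and control oligodendrocytes, 1 corepressor gene and 1 coactivator gene passed, both as higher, where 3.64% of all tested genes passed as higher. Sin3a, a scaffold of deacetylase complexes, had 861.6, 789.2 and 572.6 on knockout arrays against 480.1, 484.4, 308.3 and 364.5 on control arrays, with a log2 difference of 0.84 ± 0.21 and an adjusted p of 0.0278. Ncoa1, the steroid receptor coactivator, had 1275.8, 1367.1 and 1216.2 against 883, 871.4, 787.3 and 839, with a log2 difference of 0.60 ± 0.15 and an adjusted p of 0.0287. Neither gene overlapped between the groups, and neither call held throughout the alternatives. The adjusted p of Ncoa1 was 0.062 to 0.133 without any 1 of the 7 oligodendrocyte arrays. That of Sin3a was 0.136 without knockout array 1, 0.125 without knockout array 2, 0.0778 without control array 3 and 0.0676 without control array 4, and with its probe sets averaged it was 0.1. With the replicate block Trip12, a ubiquitin ligase, also passed, as lower (log2 difference -0.52, adjusted p = 0.0293, against 0.0647 with only the 7 arrays), a gene singled out after its values were seen.

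Other nuclear receptors, several of which also pair with retinoid X receptors, were tested for 6 of 13 genes. Rarb, a retinoic acid receptor gene itself induced by retinoic acid, had 357.1, 459.3 and 448.3 on knockout arrays, 346.3, 521.7, 342 and 485.9 on control arrays, and 110.1, 45.3, 94.2 and 66.9 on progenitor arrays. It overlapped between genotypes and passed as higher in both against progenitors. The log2 difference was 2.25 (adjusted p = 6.33e-05) in knockout and 2.24 (adjusted p = 3.64e-05) in control oligodendrocytes. No progenitor array reached the minimum signal of the filter, so Rarb entered the test through the oligodendrocyte arrays. These calls describe the gene and add no support. Between knockout and control oligodendrocytes 2 of the 6 passed as higher and 0 as lower, and 4 passed as higher with the replicate block. Of all tested genes, 3.64% passed as higher in the main fit, and 22.2% in either direction with the replicate block. These counts describe the list and support no test of it. The immediate-early receptor gene Nr4a1 had 1489.3, 1351.2 and 1128.8 on knockout arrays against 698.9, 714.7, 248.4 and 452.4 on control arrays (log2 difference 1.40 ± 0.31, adjusted p = 0.0178). Rarg had 349.6, 579.2 and 380.9 against 113.7, 208.1, 175.3 and 240.3 (1.19 ± 0.29, adjusted p = 0.0254). Nr4a1 had an adjusted p of 0.0857 without knockout array 1 and 0.0774 without knockout array 2. Rarg had 0.0515, 0.145 and 0.066 without knockout arrays 1, 2 and 3, and 0.0688 and 0.0609 without control arrays 1 and 3. The others were Ppard (1.04, adjusted p = 0.0242), which also passed with only the 7 arrays (adjusted p = 0.0375), and Nr1d2 (0.75, adjusted p = 0.0478), which did not (adjusted p = 0.108), both singled out after their values were seen.

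Most of the tested relatives of Klf9 did not share its pattern. Of 13 tested, 2 passed as higher and 3 as lower in knockout oligodendrocytes against progenitors, and 1 as higher and 5 as lower in control oligodendrocytes. Of all tested genes, 23.8% passed as higher and 26.8% as lower in knockout oligodendrocytes, and 24.4% and 29.6% in control oligodendrocytes. The counts for the relatives describe the list and support no test of it. The count of 5 was 2 without progenitor array 1, and that of 1 was 2 without progenitor array 2 or control array 3. The count of 2 was 1 without knockout array 2. With probe sets averaged 3 passed as higher in each comparison. Klf13, the closest relative of Klf9, averaged 1603 ± 611 in knockout oligodendrocytes, 1915 ± 784 in control oligodendrocytes and 1853 ± 581 in progenitors (SD, n = 3, 4 and 4) and overlapped in every comparison. Klf12, a repressor of the same family, was lower against progenitors by -1.90 (adjusted p = 0.000204) in knockout and -2.11 (adjusted p = 5.77e-05) in control oligodendrocytes. Klf15 was higher by 1.89 (adjusted p = 0.000302) in knockout and by 0.93 (adjusted p = 0.0125) in control oligodendrocytes. For Klf15 and Klf5, the genes called as higher, no progenitor array reached the minimum signal of the filter. Both entered the test through the oligodendrocyte arrays, and their calls add no support. Klf4, called as lower in both comparisons, had no oligodendrocyte array at that signal and entered through the progenitor arrays. Between genotypes 0 of the 13 passed in the main limma fit, where 2 had an unadjusted p under 0.05. Without control array 2 or 4 it called 1 as higher, and without progenitor array 2 it called 2, and with probe sets averaged 1. With only the 7 oligodendrocyte arrays 2 passed as higher, Klf15 (adjusted p = 0.0458) and Klf16 (adjusted p = 0.032), as they did with the replicate block (adjusted p = 0.0327 and 0.0256). Those fits called 15.8% and 22.2% of all tested genes.

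Of the genes that carry thyroid hormone into cells or degrade it, 3 of 11 were bright enough to test. Slc7a5, the light chain of an amino acid transporter that also carries thyroid hormone, had 946.1, 1761.2 and 594.1 on knockout arrays, 438.4, 367.4, 326.3 and 447.6 on control arrays, and 2083.6, 341.3, 1612.2 and 1959 on progenitor arrays. Every control array was below every knockout array, and progenitor array 2 lay among the control arrays. Control oligodendrocytes were lower than progenitors by -1.61 ± 0.50 on the log2 scale (adjusted p = 0.0176), which was 0.0563 and 0.0525 without progenitor array 1 or array 4. Without both, those with the low Gapdh ratio, the difference was -0.90 (adjusted p = 0.209). Knockout oligodendrocytes exceeded control oligodendrocytes by 1.31 ± 0.54 (adjusted p = 0.183). This passed with only the 7 oligodendrocyte arrays (adjusted p = 0.0228) and with the replicate block (1.38, adjusted p = 0.0175). Slco1c1, another transporter gene, was at least 2.38-fold higher in knockout oligodendrocytes than in progenitors (log2 difference 3.14, adjusted p = 0.0239). It entered the test through the oligodendrocyte arrays, so this call adds no support. Without knockout array 1 the adjusted p was 0.109, and without knockout array 2 it was 0.0896. Slc3a2 passed in none of the 3 comparisons of the main fit.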

How the data were processed

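RNA was hybridised to Affymetrix Mouse Genome 430 2.0 arrays. The deposited intensity of each probe set is a MAS 5.0 signal made in GCOS 1.3 and scaled by the authors to a target of 500, per the submitters' processing notes and design text, and signals are not comparable between probe sets. Control probe sets (64) were not removed before the filter, so any that passed it count among the kept probe sets. Log2(signal + 16) was taken, probe sets with a signal of 200 on at least 3 arrays were kept (18628), and the brightest probe set stood for each gene (10070). Gene names came from GEO's platform annotation, updated through Entrez identifiers: 34958 probe sets have 1 symbol, 932 several and 9211 none. All 11 arrays were fitted as 3 group means in limma 3.58.1 (R 4.3.3, trended empirical Bayes, Benjamini-Hochberg adjustment, threshold 0.05), and a second fit took all kept probe sets. The knockout against progenitor and control against progenitor comparisons share the progenitor arrays.

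Same-numbered knockout and control arrays deviated together from their group means (correlations 0.242, 0.241 and 0.214), so their numbers were taken to pair them. Differently numbered arrays were not compared, and the sample titles state no pairing. The fit with replicate as a block holds only the same-numbered arrays of these 2 groups. It is given where it changes a call, beside the fit of the 7 oligodendrocyte arrays without it. A floor of 100 sets the bounds for probe sets under it on every array of a group. On simulated data for knockout against control (10070 genes, 200 changed), 86.3% of changes of 2 and 49.0% of changes of 1 on the log2 scale were recovered, and 4.90% of calls were false. Against progenitors, 7.74% of simulated calls were false for knockout and 2.07% for control oligodendrocytes. The number of arrays limits precision, and no counting error applies. Alternatives (22) changed the pseudocount, filter, choice of probe set, groups fitted, block and arrays. The members and lists were chosen with earlier results of these data known. Named genes were all members, Myrf, up to 3 per list, comparison and direction by size of change, the 2 brightest of each marker list, and for Klf9, Thra and Rxrg the 3 genes of highest Pearson correlation, and not all of these are printed. Promoter windows came from RefSeq.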

Additional observations from a re-analysis of the deposited data

Results flagged for a closer look

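In 32 sets of 4 arrays, 2 had an array set apart from the rest of its group by more than Dixon's critical share of the group's range, which chance passes in about 1 of 20 groups. Control array 3 had the lowest Rxra signal (1454773_at), 160.6 against 228.3 to 244.9 on the other control arrays, a gap of 0.8315 of the range. Progenitor array 3 had the highest signal of the Klf9 probe set 1428289_at, 783.3 against 251.6 to 306.5 on the other progenitor arrays, a gap of 0.8295 of the range.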

How the results depend on the processing

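Over the 22 alternatives, Klf9, Hr, Dio2 and Rxrg kept their direction and their call in both comparisons with progenitors wherever they passed the filter. With a filter of 400 in place of 200, 2 members passed as higher in knockout oligodendrocytes and 3 in control oligodendrocytes against progenitors, because Rxrg and Dio2 were no longer tested. Between genotypes the number of genes called moved between 374 and 1323 when single arrays were left out, against 758, and was 1587 with only the 2 groups and 2238 with the replicate block added to that fit, with 2 members then higher and 1 lower. With a pseudocount of 64, 1 member was higher, and with only the 2 groups 1 was lower. Leaving out single arrays gave 0 to 1 members higher between genotypes and 0 to 1 lower in control oligodendrocytes against progenitors. For comparisons with progenitors, the replicate numbers were not taken to pair the samples (correlations -0.117 to 0.193). The count of genes called in knockout oligodendrocytes against progenitors was 5098 in the main fit and 3091 with only those 2 groups and a replicate block.

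Small differences changed sign when arrays were left out, and the cause was not tested. Between genotypes, the leave-out ranges were -0.24 to 0.41 for Dio2 (-0.20 without knockout array 1), -0.0034 to 0.34 for Rxrb and -0.021 to 0.24 for Klf9. The Rxrb range was -0.046 to 0.30 for knockout oligodendrocytes and -0.13 to 0.055 for control oligodendrocytes against progenitors. Without progenitor arrays 1 and 4, Rxrb was 0.18 for control oligodendrocytes, and Rxra was 0.054 and Myrf -0.28 for knockout oligodendrocytes. With probe sets averaged, Tbl1xr1 was 0.23 in knockout oligodendrocytes against progenitors.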

Other observations

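The genes whose signals ran most like Klf9, Thra and Rxrg over the 11 arrays were listed by Pearson correlation of log2(signal + 16), as a description, since all points share the same 3 groups. For Klf9 they were Sparcl1 (r = 0.994), Htra1 (r = 0.994) and Col4a5 (r = 0.992). Sparcl1, an extracellular matrix protein of glia, averaged 15028 in knockout oligodendrocytes, 13358 in control oligodendrocytes and 242.5 in progenitors. Within the 7 oligodendrocyte arrays the correlations with Klf9 were 0.648, 0.257 and 0.700, so the likeness is mostly that of oligodendrocyte against progenitor arrays. For Rxrg they were Ahnak2 (r = 0.987), Hey2 (r = 0.983) and Phka1 (r = 0.977), with 0.979, 0.960 and 0.952 within the oligodendrocyte arrays. Hey2, a transcriptional repressor known as a Notch target, averaged 451 in knockout oligodendrocytes, 155 in control oligodendrocytes and 32.4 in progenitors, the same steps as Rxrg. For Thra they were Sh3gl3 (r = 0.959), Slc29a3 (r = 0.949) and Mllt11 (r = 0.943), with 0.935, 0.960 and 0.756 within the oligodendrocyte arrays. Sh3gl3, an endophilin gene, averaged 5157 in knockout oligodendrocytes, 9241 in control oligodendrocytes and 4258 in progenitors.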
